A study of Mus musculus with 258 samples.

Results

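Among 118 Ngn3-low cells of the embryonic mouse pancreas, 57 were classed as cycling and 61 as non-cycling, the members being chosen by their level of Mki67, the gene of the proliferation antigen Ki-67. A cell was cycling when Mki67 stood at 10 CPM (counts scaled to equal library totals) or more, with spike-in reads left out, and non-cycling when it stood below. The 118 cells are part of 221 single cells in a series of 258 samples, which addresses chromatin marks and the H3K27 demethylase JMJD3 during endocrine fate commitment. All cells came from E13.5 dorsal pancreas and were sorted by Ngn3, the product of Neurog3. The Jmjd3-deleted group carried Pdx1-Cre and Jmjd3 fl/fl and gave 69 Ngn3-low cells, 34 of them cycling and 35 non-cycling. The WT group gave 49 Ngn3-low cells, 23 of them cycling and 26 non-cycling, and its labels name no Cre, so Cre and the deletion cannot be told apart. Pdx1-Cre acts in pancreatic progenitors, so it is not restricted to Ngn3-expressing cells. The labels name no animal, only a title number for each cell, so each genotype is 1 sample, and no comparison between genotypes or classes has a test.

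Ki-67 protein and its mRNA accumulate in S, G2 and M phase and are lost when a cell leaves the cycle. The genes of DNA replication are switched on at the G1 to S boundary by E2F factors, and the genes of mitosis follow in G2 under B-Myb, FoxM1 and the MuvB complex. In the pancreas, trunk and tip progenitors divide, whereas progenitors that gather high Ngn3 leave the cycle and become endocrine cells.

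The targeted gene, Kdm6b, which encodes JMJD3, stood at 53.3 CPM in cycling and 57.7 CPM in non-cycling Jmjd3-deleted cells, against 111 CPM in cycling and 152 CPM in non-cycling WT cells. Both deleted classes were thus lower than both WT classes, and gene-level counts also hold reads outside the deleted exons. Epcam and Cdh1, which mark epithelium, and Sox9, a progenitor transcription factor, reached 10 CPM in 118 of 118 cells. Uty, a gene of the Y chromosome, stood at 0.935 and 1.02 CPM in deleted cycling and non-cycling cells, against 31.6 and 40.4 CPM in the same WT classes. The sex of the embryos therefore cannot be told apart from genotype.

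The replication and mitosis genes differ in their promoters, and the following sequences show the letters in question. They are the 200 bases before the annotated start of each gene (RefSeq, GRCm38.p6), and capitals mark matches on either strand to 3 sets of letters. The first is the CHR (TTTGAA or TTCGAA), the element bound by MuvB complexes. The second is the NF-Y box (CCAAT), and the third is an E2F site (TTTCCCGC, TTTGGCGC, TTTCGCGC or TTTGCCGC). Mki67 (chr7:135716380-135716579, minus strand), Top2a (chr11:99024190-99024389, minus strand), Kif11 (chr19:37376182-37376381, plus strand) and Depdc1a (chr3:159495233-159495432, plus strand) are examples, not a sample, of genes that were far higher in cycling cells. Cdk1 (chr10:69352913-69353112, minus strand) and Gins3 (chr8:95633359-95633558, plus strand) hold all 3 sets, and Mcm6 (chr1:128359706-128359905, minus strand) stands for a replication helicase gene that differed little.
Mki67: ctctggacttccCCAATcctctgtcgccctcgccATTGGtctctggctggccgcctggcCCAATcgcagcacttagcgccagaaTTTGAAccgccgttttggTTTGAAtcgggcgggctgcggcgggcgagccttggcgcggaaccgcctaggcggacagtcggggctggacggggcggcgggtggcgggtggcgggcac
Top2a: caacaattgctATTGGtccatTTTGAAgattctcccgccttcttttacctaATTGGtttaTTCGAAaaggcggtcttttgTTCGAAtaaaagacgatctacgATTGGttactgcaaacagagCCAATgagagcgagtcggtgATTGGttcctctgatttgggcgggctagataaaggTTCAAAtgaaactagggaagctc
Kif11: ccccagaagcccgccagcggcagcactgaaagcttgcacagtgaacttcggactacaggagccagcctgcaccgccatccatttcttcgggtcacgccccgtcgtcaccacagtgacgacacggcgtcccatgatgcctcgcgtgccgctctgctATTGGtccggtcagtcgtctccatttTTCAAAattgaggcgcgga
Depdc1a: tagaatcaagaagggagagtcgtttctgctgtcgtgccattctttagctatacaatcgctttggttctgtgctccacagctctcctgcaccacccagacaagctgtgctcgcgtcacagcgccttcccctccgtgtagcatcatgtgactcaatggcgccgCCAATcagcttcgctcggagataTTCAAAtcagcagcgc
Cdk1: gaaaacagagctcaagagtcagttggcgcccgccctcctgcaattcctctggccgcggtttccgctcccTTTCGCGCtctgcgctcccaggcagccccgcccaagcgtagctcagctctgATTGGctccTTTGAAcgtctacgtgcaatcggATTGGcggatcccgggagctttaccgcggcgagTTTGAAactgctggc
Gins3: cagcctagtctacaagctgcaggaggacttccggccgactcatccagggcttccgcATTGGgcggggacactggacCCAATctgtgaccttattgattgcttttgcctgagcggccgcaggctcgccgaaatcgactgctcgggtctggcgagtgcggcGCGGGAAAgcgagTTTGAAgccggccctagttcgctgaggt
Mcm6: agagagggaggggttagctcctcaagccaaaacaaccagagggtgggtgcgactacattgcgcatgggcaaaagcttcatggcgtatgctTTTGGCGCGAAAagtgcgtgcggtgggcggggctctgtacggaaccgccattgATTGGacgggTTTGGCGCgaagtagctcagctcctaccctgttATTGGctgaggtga

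In these windows Mki67 held 3 NF-Y boxes and 2 CHR matches, Top2a held 5 and 4, and Kif11 and Depdc1a held 1 of each. Mcm6 held 3 E2F matches, of which a pair on opposite strands overlap, and no CHR match. Over the full 300-base promoters, 250 bases before the start to 50 after it, 44 of the 55 genes of the Mitosis list could be matched to RefSeq. CHR letters stood in 34 of these 44 (77.3%), against 5253 of all 27018 promoters (19.4%). Letters of the NF-Y box stood in 32 of the 44 (72.7%), against 37.9% of all promoters, and both together in 30 (68.2%), against 7.70%. E2F letters stood in 3 of the 44 (6.82%), against 2.32% of all promoters. Birc5, Nuf2 and Nusap1, members of the Mitosis list also called higher in cycling cells, held no match to any of these sets of letters.

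Promoters of the DNA replication list showed another makeup. Of 50 members, 36 were matched, and 7 of them held CHR letters (19.4%), the share found in all promoters. E2F letters stood in 14 of the 36 (38.9%) and NF-Y letters in 22 (61.1%). Among the 8236 matched genes with a level high enough to be compared, 13.3% held CHR letters, 39.6% NF-Y letters and 4.37% E2F letters. A match of letters is a description of the window and not a measured binding site.

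**Figure D1:**
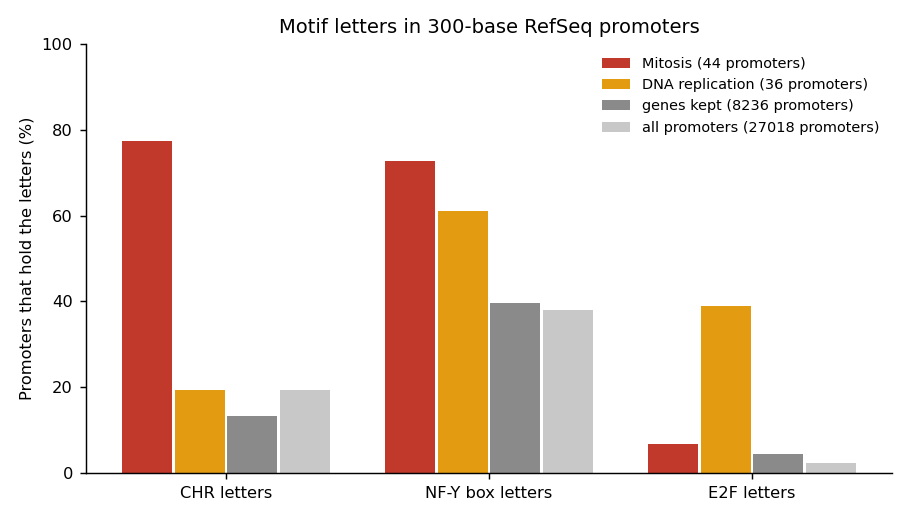
Share of RefSeq promoters, in percent, that hold the letters of the CHR, the NF-Y box or the E2F site, for genes of the Mitosis list, the DNA replication list, all genes compared and all promoters (bars). The Mitosis bar stands at 77.3% for the CHR, and the DNA replication bar stands at 38.9% for E2F.

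Cycling cells made up nearly equal shares of the Ngn3-low cells in both genotypes. They were 34 of 69 Jmjd3-deleted cells, or 49.3% (95% exact Clopper-Pearson interval 37 to 61.6%), against 23 of 49 WT cells, or 46.9% (32.5 to 61.7%). These intervals overlap almost fully and cover counting error only. Within the deleted group, title numbers 1, 2 and 5 held 9 of 18 (50%), 17 of 36 (47.2%) and 8 of 15 cycling cells (53.3%). Within WT, title numbers 1 to 5 held 7 of 10, 8 of 13, 1 of 7, 5 of 14 and 2 of 5. The WT title numbers thus ran over a range of 14.3% to 70.0%, wider than the 47.2% to 53.3% of the deleted group, with few cells in each. The difference between the shares of the genotypes was not tested, since each genotype is 1 sample.

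Since the classes were cut from Mki67, its own values are given as a description. Mki67 in cycling cells ran over a range of 11.6 to 1038 CPM with a median of 183 CPM, and 51 of the 61 non-cycling cells had no Mki67 read. The 3 cycling cells nearest the threshold stood at 11.6, 17.6 and 26.6 CPM, and the 3 non-cycling cells nearest it at 9.76, 7.51 and 4.61 CPM. Only 4 cells lay within 2-fold of the threshold. By genotype, cycling cells had a median Mki67 of 177 CPM in the deleted group and 183 CPM in WT. The same rule applied to the Ngn3-high cells found 1 of 44 deleted cells (2.27%, interval 0.0575 to 12%) and 3 of 59 WT cells (5.08%, 1.06 to 14.1%). Over both genotypes that was 57 of 118 Ngn3-low cells (48.3%, 39 to 57.7%), against 4 of 103 Ngn3-high cells (3.88%, 1.07 to 9.65%). These intervals pool the cells of all title numbers and cover counting error only, and the difference was not tested. The 4 Ngn3-high cells stood at 26.6 to 69.3 CPM of Mki67, below the median of the cycling Ngn3-low cells.

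**Figure D2:**
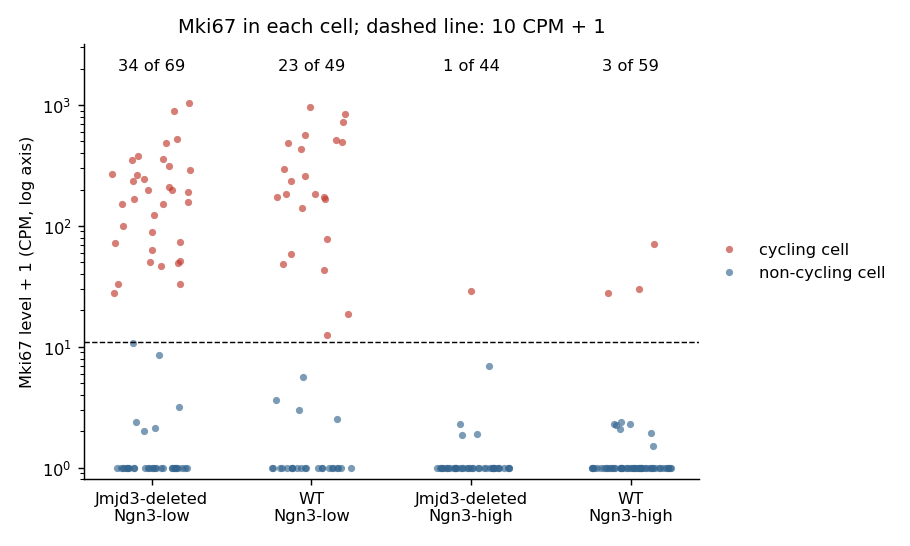
Mki67 level in each single cell in CPM, with 1 added, on a log axis, for Jmjd3-deleted and WT cells of the Ngn3-low and Ngn3-high sorts (points, red for cycling and blue for non-cycling). The counts above each column give cycling cells of all cells, and 34 of 69 and 23 of 49 Ngn3-low cells lie above the dashed line at 10 CPM.

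Across genes, counts were summed over the cells of a class and genotype, and the ratio of cycling to non-cycling cells was taken as log2 of CPM with 1 CPM added. A gene is called higher or lower where it differed at least 2-fold in the same direction in both genotypes. Of 10907 genes with a mean level of 5 CPM or more, 248 were called higher (2.27%) and 100 lower (0.917%) in cycling cells. Mki67 itself is 1 of the 248. The filter is a mean over the 4 groups, so a gene high in 1 class can pass it through that class alone. The classes were drawn from Mki67 in the same cells, so these counts and those of the lists below are descriptions with no test. With a Mki67 threshold of 1 CPM, 204 of the higher and 41 of the lower genes were still called. The median gene differed by -0.02 log2 units. In 192 of the 248 higher and 25 of the 100 lower genes the direction was the same in all 6 title-number sets that held 3 or more cells of each class. WT title numbers 3 and 5, with 1 and 2 cycling cells, were left out. The sets are parts of the cells that made the calls, so this agreement is partly built in.

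The genes of mitosis stood furthest from 0 of all 26 lists. Of 55 members of the Mitosis list, all kept, 53 were called higher, where 2.27% of all genes compared were, and 0 lower. The median log2 ratio was 4.15 (3.66 in deleted, 4.63 in WT cells). The exceptions were Pttg1, which encodes securin, and Bub3, a checkpoint protein, both above 0 in each genotype and under 2-fold in the deleted cells. Within the 6 title-number sets the list median lay between 2.95 and 6.38. The kinases of mitotic entry and exit were among them. Plk1, the polo-like kinase of mitosis, had 113 CPM in cycling and 0.982 CPM in non-cycling deleted cells. In WT cells Plk1 had 233 CPM in cycling cells and no read in any of 26 non-cycling cells, at least 1235-fold higher against a floor of 3 counts over the group (0.188 CPM). Cell by cell, Plk1 ran from 0 over a median of 45.8 to 954 CPM in cycling cells and from 0 over a median of 0 to 38 CPM in non-cycling cells, and reached 10 CPM in 35 of 57 and 1 of 61. Many cycling cells therefore overlapped with non-cycling ones at 0.

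Aurkb, the kinase of the chromosomal passenger complex, reached 10 CPM in 37 of 57 cycling and 2 of 61 non-cycling cells. Its partner Birc5, survivin, did so in 51 of 57 and 9 of 61 cells. Birc5 had 226 CPM in cycling and 11.5 CPM in non-cycling deleted cells, and 243 and 3.14 CPM in the same WT classes. The cyclin-dependent kinase Cdk1 had 262 and 25.4 CPM in deleted and 417 and 35 CPM in WT cycling and non-cycling cells, with log2 ratios of 3.31 and 3.54. Ccnb1, the mitotic cyclin B1, gave log2 ratios of 4.23 and 5.60, and Ccna2, cyclin A2, gave 4.43 and 4.69. Ccnb1 has close pseudogenes, so its level is uncertain.

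Spindle and kinetochore genes followed the kinases. Kif11, the motor that separates the spindle poles, had 167 and 2.04 CPM in deleted and 294 and 4.96 CPM in WT cycling and non-cycling cells. Nusap1, which bundles spindle microtubules, gave log2 ratios of 4.80 in deleted and 7.23 in WT cells. Nuf2, a kinetochore subunit, gave 5.31 and 5.36. Cep55, which acts in the final separation of daughter cells, gave 5.31 and 5.57. Ckap2l, a spindle protein, gave 4.49 and 6.33, and Cdca2, a phosphatase subunit on chromosomes, gave 5.87 and 4.77. Depdc1a gave 5.46 and 6.39 and reached 10 CPM in 28 cycling and 0 non-cycling cells. The rule that named these genes asks for the same direction in all 6 title-number sets.

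Top2a, the topoisomerase that untangles chromosomes, marks the same program. It had 372 CPM in cycling and 28.4 CPM in non-cycling deleted cells, and 806 and 45.4 CPM in the same WT classes. Per cell it ran from 0 over a median of 278 to 2389 CPM in cycling cells, against 0, 1.12 and 508 CPM in non-cycling cells, so the classes overlapped. Top2a reached 10 CPM in 44 of 57 cycling and 17 of 61 non-cycling cells, and both Top2a and Cdk1 in 41 and 10. Per length of transcript, the mean level over cycling WT cells was 152 RPKM for Top2a, 202 RPKM for the ubiquitin-conjugating enzyme Ube2c and 29.6 RPKM for Mki67.

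**Figure D3:**
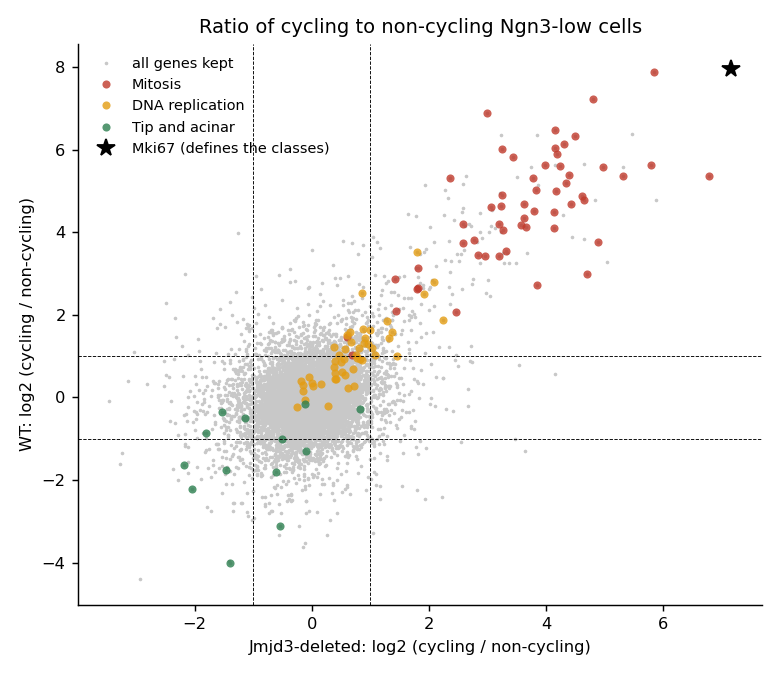
Log2 ratio of cycling to non-cycling Ngn3-low cells for each of 10907 genes, in Jmjd3-deleted cells (horizontal axis) and WT cells (vertical axis), with the Mitosis, DNA replication and Tip and acinar lists coloured and dashed lines at 2-fold. The Mitosis genes lie far along the diagonal with a median of 4.15, the DNA replication genes lie just above the centre with a median of 0.86, and the Tip and acinar genes lie below with a median of -1.20.

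DNA replication genes differed far less. Of 50 members, 49 were kept, and 47 had a mean ratio above 0. Of the 49, 10 were called higher, where 2.27% of all genes compared were, and 0 lower. The median log2 ratio was 0.86. The median in the 6 title-number sets lay between 0.04 and 1.99. Members called included Mcm10, Rrm2, Clspn, E2f8, Exo1, Gins3, Ccne2, Uhrf1 and Rfc4. Rrm2, the regulated subunit of ribonucleotide reductase, had 355 and 82.5 CPM in deleted and 445 and 63.2 CPM in WT cycling and non-cycling cells. Mcm10, which helps fire origins, had log2 ratios of 1.80 and 3.52, and Clspn, a replication checkpoint adaptor, 1.91 and 2.50. E2f8, a repressor of E2F targets, gave 2.24 and 1.88, with -2.01 in WT title number 4 and values above 0 in the other sets. None of the 6 subunits of the replicative helicase was called. Mcm2, Mcm3 and Mcm4 had log2 ratios of -0.11, -0.18 and -0.25 in deleted and -0.05, 0.39 and -0.22 in WT cells. Mcm5, Mcm6 and Mcm7 had 0.39, -0.15 and 0.16 in deleted and 0.89, 0.16 and 0.33 in WT cells. Mcm2 and Mcm4 were the 2 members of the list with a mean ratio below 0. Mcm5 reached 10 CPM in 52 of 57 cycling and 45 of 61 non-cycling cells. Mcm6 reached 10 CPM in 56 of 57 cycling and 59 of 61 non-cycling cells. Pcna, the sliding clamp, missed the call with log2 ratios of 0.67 and 1.34.

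The count of 10 depended on which cells were compared. Without the non-cycling cells that held Top2a or Cdk1 at 10 CPM, 31 members were called higher with a median of 1.55, a comparison chosen after seeing the data. That filter kept 31 of 61 non-cycling cells and every cycling cell. It took cells with division genes from 1 class only, so a rise in these ratios is partly built in. Leaving out title number 2 of the deleted cells gave 22, and leaving out title number 5 of the deleted cells gave 4. A threshold of 50 CPM gave 18, and scaling to ERCC spike-in reads gave 17. No member was called lower in any of these settings.

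Within single cells, replication and mitosis genes were related, and the cells highest in one were not those highest in the other. Spearman's rank correlation of the summed levels was 0.50 over 118 cells, 0.28 in cycling and 0.63 in non-cycling cells. The summed level of the Mitosis list ran from 240 over a median of 5585 to 26186 CPM in cycling cells, against 46.4, 538 and 3790 CPM in non-cycling cells. In 35 of 57 cycling cells it lay above every non-cycling cell, and in the other 22 it overlapped. The summed level of the DNA replication list ran from 1110 over 4656 to 21145 CPM in cycling cells, against 570, 3639 and 15001 CPM in non-cycling cells, a wide overlap. It stood at 10000 CPM or more in 16 cycling and 7 non-cycling cells. The Mitosis sum stood at 10000 CPM or more in 17 cycling and 0 non-cycling cells. No cell was that high in both lists, and 24 cycling and 54 non-cycling cells in neither. The 16 cycling cells high in replication genes had a median Mitosis sum of 5039 CPM, near that of all cycling cells. Mki67 had a median of 489 CPM in the 17 cells high in Mitosis genes and of 177 CPM in the 16 high in replication genes. The level of 10000 CPM was chosen after the values were seen, and both sums share each cell's total.

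Cyclin E and Plk1 divided the cycling cells further. At least 1 of Ccne1 and Ccne2, the cyclins of S-phase entry, together with Plk1 reached 10 CPM in 20 cycling cells, the cyclins without Plk1 in 10, Plk1 without the cyclins in 15 and neither in 12. The 20 cells with both had a median replication sum of 11630 CPM and a median Mitosis sum of 6827 CPM. The 10 cells with cyclin E alone had 11094 and 3062 CPM. The 15 with Plk1 alone had 3755 and 17964 CPM. The 12 cells with neither had 1686 and 462 CPM, levels inside the range of non-cycling cells, with Mki67 of 17.6 to 199 CPM. Among non-cycling cells 33 held cyclin E without Plk1, 27 neither, 1 both and 0 Plk1 alone. The Mki67 rule thus left cells with cyclin E transcripts in the non-cycling class, and cells with neither cyclin E nor Plk1 at 10 CPM in the cycling class.

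**Figure D4:**
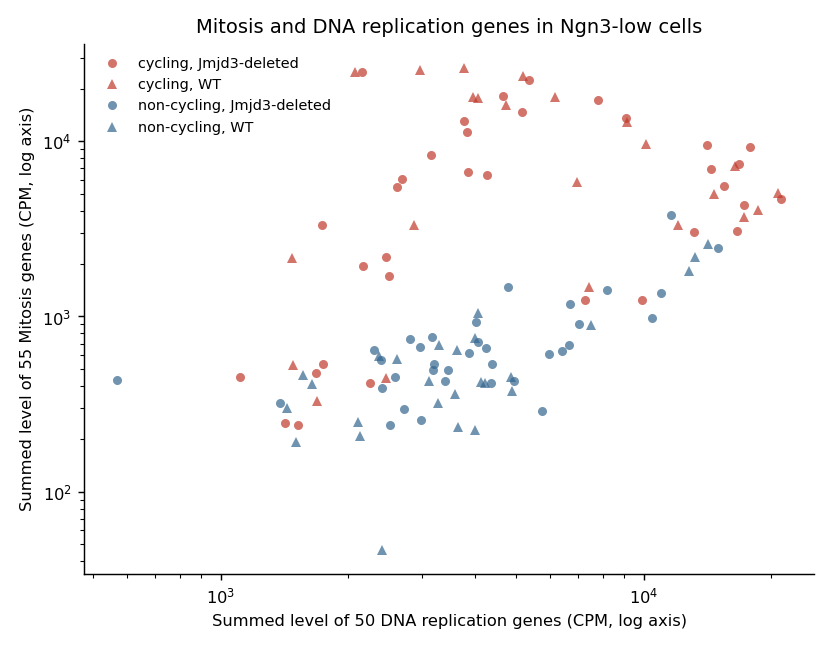
Summed level of 55 Mitosis genes against that of 50 DNA replication genes in each of 118 Ngn3-low cells, both in CPM on log axes, for cycling (red) and non-cycling (blue) cells of Jmjd3-deleted (circles) and WT (triangles) embryos. The 17 cells with the Mitosis sum at 10000 CPM or more lie left of the 16 cycling cells with the replication sum at 10000 CPM or more, and 9 cycling cells have a Mitosis sum under 1000 CPM, where 51 of 61 non-cycling cells lie.

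Genes were also ordered by how closely they followed Mki67 across all 118 cells, a description since Mki67 set the classes. Among 9967 genes with 10 CPM or more in at least 20% of cells, Spearman's rank correlation with Mki67 was highest for Birc5 at 0.843 (0.810 within the cycling cells alone). Next came Cdca8, a passenger complex subunit, at 0.807, Kif15 at 0.778, Cdca3 at 0.774, Ccna2 at 0.774, Ckap2l at 0.766, Bub1b at 0.763, Bub1 at 0.762, Spag5 at 0.761 and Pbk at 0.756. The rank correlation was lowest for Ucp2, an inner mitochondrial membrane carrier, at -0.53, Wdr6 at -0.50, Dtx3, a ubiquitin ligase of the Deltex family, at -0.49, RP23-8J15.1 at -0.48 and Marcksl1 at -0.48. Ucp2 had 167 CPM in cycling and 298 CPM in non-cycling deleted cells, and 186 and 290 CPM in WT cells, within 2-fold. The cells share depth and spike-in differences, so these values only order the genes.

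The list of G1 cyclin and E2F-Rb genes gave 1 call, where 2.27% of all genes compared were called higher. Of 19 G1 cyclin and E2F-Rb genes, 18 were kept, and 1 was called higher, E2f7, a repressor of E2F targets, with log2 ratios of 1.69 and 1.64. E2f7 stood at -0.56 in WT title number 4 and above 0 in the other sets. The D-type cyclins, which carry growth signals to the cycle, included Ccnd1 at log2 ratios of 0.17 and 0.33 and Ccnd2 at -0.91 and -0.60, both without a call. Ccnd3, the remaining one, had 287 and 288 CPM in deleted and 235 and 345 CPM in WT cycling and non-cycling cells. Cdk4, their kinase, stood at 1098 and 1113 CPM in deleted and at 1039 and 1022 CPM in WT cycling and non-cycling cells. Ccne1 missed the call at 0.57 and 1.18. Ccne2, counted on the DNA replication list, passed it at 1.45 and 1.00, with 4 of 6 title-number sets above 0. Ccne2 reached 10 CPM in 18 of 34 cycling and 12 of 35 non-cycling deleted cells. In WT cells the order was the opposite, with 9 of 23 cycling and 12 of 26 non-cycling cells. Without the non-cycling cells that held Top2a or Cdk1, the mean log2 ratio of Ccne1 was 2.70, a rise that this one-sided filter partly builds in.

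Genes that restrain division gave 1 call. Of 13 cell cycle arrest genes, 10 were kept, 0 were called higher and 1 lower, with a median of -0.32. That gene, Btg2, an antiproliferative p53 target, had 24.1 and 71.7 CPM in deleted and 24 and 66.7 CPM in WT cycling and non-cycling cells. Cdkn1a, which encodes p21, had log2 ratios of -0.86 and 0.05 and was not called, although it was lower in 6 of 6 sets. Cdkn1b, p27, stood at 0.25 and 0.74, and Cdkn1c, p57, at -0.31 and 0.43. Of 15 p53 targets, 12 were kept and 2 were called lower, where 0.917% of all genes compared were. Trp53inp1, a stress-induced regulator of p53, had 36 and 115 CPM in deleted and 26.6 and 95.4 CPM in WT cells, and reached 10 CPM in 24 of 57 cycling and 42 of 61 non-cycling cells. Bbc3, the death gene Puma, had log2 ratios of -1.11 and -1.08, and was lower in 5 of 6 sets, with 1.30 in WT title number 4.

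Other genes met the naming rule in the lower direction. Mxd1, which opposes Myc at its targets, had 7.71 and 31.5 CPM in deleted and 9.08 and 38.4 CPM in WT cycling and non-cycling cells, and reached 10 CPM in 8 of 57 cycling and 26 of 61 non-cycling cells. Abcg1, a cholesterol exporter, had log2 ratios of -2.12 and -1.20, and Adck3, a mitochondrial protein of coenzyme Q synthesis, -2.12 and -1.84. Pclo, a presynaptic scaffold protein, gave -1.34 and -2.74, Slc39a5, a zinc transporter, -1.60 and -1.25, Mxra8 -1.35 and -2.56, and 1110034G24Rik -1.17 and -1.59. The rule itself asks for the same direction in all 6 title-number sets. The median cycling cell had none of their reads. Only 13 genes met this rule for lower, against 161 for higher.

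Chromatin and cytoskeleton genes gave a mixed picture. Of 17 genes on a list of high mobility group, variant histone and linker histone genes, all kept, 4 were called higher. Over all genes compared, 2.27% were called higher. The list median was 0.46. Hmgb2, a DNA-bending protein, had 605 and 148 CPM in deleted and 690 and 107 CPM in WT cycling and non-cycling cells. H2afx, the damage-marking histone, had log2 ratios of 1.84 and 2.78, H2afz 1.04 and 1.27, and the linker histone Hist1h1c 2.71 and 1.25. Of 14 tubulin and stathmin genes, 11 were kept and 4 were called higher, Tubb4b at 1.80 and 2.69, Tuba1c at 1.36 and 2.23, Tubb2a at 1.26 and 1.89 and Tuba1b at 1.19 and 1.46. Tubulins and H2afz belong to families with near-identical copies, so reads could be split between members. None of 25 ribosome biogenesis genes was called, although 22 had a mean ratio above 0, with a median of 0.33.

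Among 14 genes of H3K27 methylation, 12 were kept and 1 was called higher, where 2.27% of all genes compared were. Eed, a core subunit of the Polycomb complex that writes the mark, had 76.9 and 35.8 CPM in deleted and 78.5 and 37.4 CPM in WT cycling and non-cycling cells. The log2 ratio of Eed was -0.55 in WT title number 4 and above 0 in the other title-number sets. Its catalytic partner Ezh2 had log2 ratios of 0.06 and 0.50. The demethylase Kdm6a had 0.16 and -0.31, and Kdm6b -0.11 and -0.45. None of 11 DNA methylation genes was called. Dnmt1, which maintains the mark behind the fork, gave 0.83 and 0.80, and Dnmt3b, a de novo enzyme, gave 1.58 and 0.92.

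**Figure D5:**
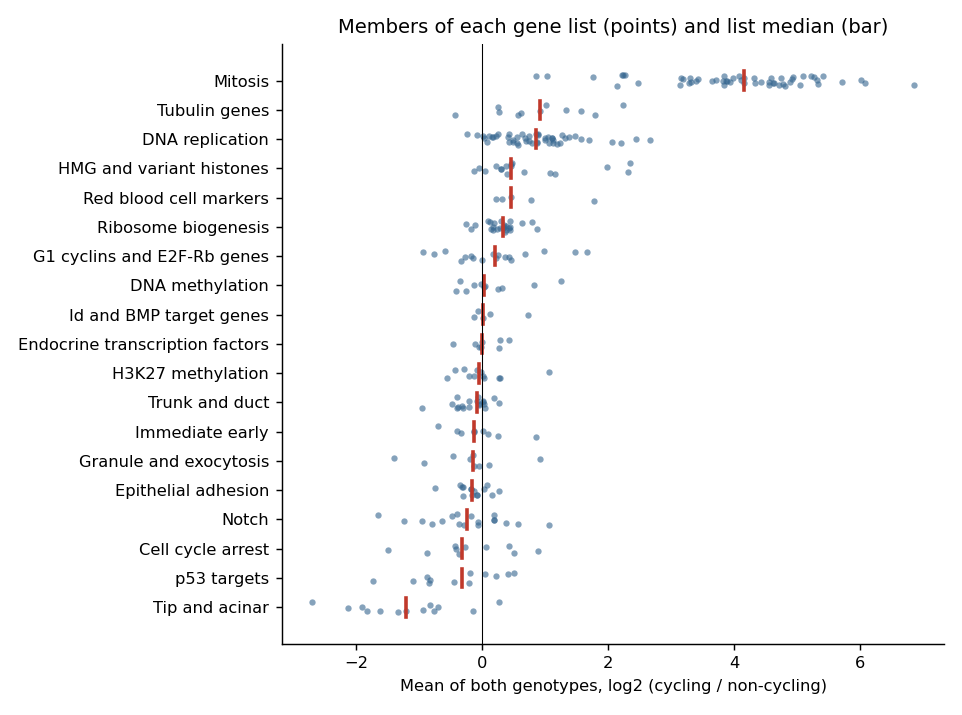
Mean log2 ratio of cycling to non-cycling cells over both genotypes for the members (points) of each list with 5 or more genes kept, with the list median as a bar. The Mitosis list stands alone at a median of 4.15, tubulin and DNA replication lie at 0.92 and 0.86, and Tip and acinar genes lie lowest at -1.20.

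Genes of endocrine commitment gave 1 call. Of 20 endocrine transcription factors only 8 were kept, 0 were called, and the median was -0.01. Neurog3 had 61.5 and 119 CPM in deleted and 71.0 and 69.5 CPM in WT cycling and non-cycling cells, so its log2 ratio was -0.94 in deleted cells and 0.03 in WT cells, with 3 of 6 title-number sets in each direction. It ran from 0 over a median of 5.78 to 676 CPM in cycling cells and from 0 over 15.8 to 807 CPM in non-cycling cells. Neurog3 reached 10 CPM in 25 of 57 cycling cells (43.9%, interval 30.7 to 57.6%) and in 36 of 61 non-cycling cells (59%, 45.7 to 71.4%). Read the other way, 25 of 61 cells with Neurog3 were cycling (41%), against 32 of 57 cells without it (56.1%). These intervals overlap, and the same order held in both genotypes, with 14 of 34 against 20 of 35 deleted and 11 of 27 against 12 of 22 WT cells. Of 22 granule genes 9 were kept and 1, Cpe, a prohormone-processing carboxypeptidase, was called lower, where 0.917% of all genes compared were. The log2 ratio of Cpe was 0.75 in deleted title number 5, 3.52 in WT title number 1 and 0 in WT title number 4. It was below 0 in the other title-number sets. Cpe reached 10 CPM in only 7 cells of each class, and its mean log2 ratio was 0.63 with a Mki67 threshold of 1 CPM. Of 8 hormone genes 2 were kept and none was called.

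Progenitor genes of the trunk gave no call. Of 20 trunk and duct genes 19 were kept and 0 were called, with a median of -0.08. Sox9 had 909 and 808 CPM in deleted and 1035 and 1270 CPM in WT cycling and non-cycling cells. Of 23 Notch pathway genes 18 were kept, and only Lfng, which modifies Notch receptors, was called lower, where 0.917% of all genes compared were. Lfng had log2 ratios of -1.23 and -1.26 and levels of 4.99 to 14 CPM. None of 15 epithelial adhesion genes, of 9 kept immediate early genes or of 5 kept Id and BMP target genes was called.

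Tip and acinar genes were the group that was lower in cycling cells, and few cells carried most of their reads. Of 20 members 13 were kept, 0 were called higher and 4 lower, where 0.917% of all genes compared were lower. The list median was -1.20. Cpa1, the digestive enzyme carboxypeptidase A1, had 389 and 1762 CPM in deleted and 482 and 1509 CPM in WT cycling and non-cycling cells. Ctrb1, chymotrypsinogen B1, gave log2 ratios of -1.40 and -4.0, Cela1, an elastase, -2.04 and -2.21, and Rbpjl, an acinar transcription factor, -1.46 and -1.77. Ptf1a, its partner, missed the call at -1.81 and -0.85 and stood at 0.69 in WT title number 4. In WT title number 1, the log2 ratio was 0.52 for Cela1 and 0 for Ctrb1 and Ptf1a. These 3 genes were below 0 in the other title-number sets. Yet the median cell had 1.14 CPM of Cpa1 when cycling and 1.09 CPM when not, and Cpa1 reached 10 CPM in 22 of 57 cycling and 24 of 61 non-cycling cells. The classes differed in the cells at 1000 CPM or more, which were 7 cycling (3 deleted, 4 WT) and 14 non-cycling cells (9 deleted, 5 WT). They held 62.1% and 99% of the Cpa1 level of deleted and 90.5% and 95.7% of that of WT cycling and non-cycling cells. Without these 21 cells no member was called, the list median was -0.14, and the log2 ratio of Cpa1 was 0.87. With a Mki67 threshold of 1 CPM the list median was -0.42, also with no member called. Ptf1a reached 10 CPM in 11 of 57 cycling and 18 of 61 non-cycling cells.

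Markers of white blood cells, endothelium and mesothelium were low in both classes. None of 11 white blood cell, 11 endothelial and 7 mesothelial markers was kept. Per cell, their summed levels reached 71.8, 83.8 and 104 CPM in cycling cells, against 28.1, 52.9 and 111 CPM in non-cycling cells. Cdh5, Erg, Cldn5 and Emcn of the endothelial list had no read in any cell. Red blood cell markers, 5 of 11 kept and none called, summed to 0 to 3066 CPM in cycling cells (median 12.2), against 0 to 928 CPM (median 5.56). Mesenchyme markers, of which only Vim was kept of 11, had medians of 306 and 267 CPM, and neural crest and glia markers, 2 of 10 kept, 117 and 104 CPM. Liver markers, 4 of 9 kept, had medians of 386 CPM in cycling and 569 CPM in non-cycling cells. Their part in the differences was not tested.

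Depth and gene number moved with the classes in WT cells. Reads in genes had a median of 724652 in cycling and 742649 in non-cycling deleted cells, and of 684044 and 508481 in the same WT classes. A median of 8953 and 8717 genes had a read in deleted and of 9453 and 8091 genes in WT cells. After thinning each cell to 380478 reads these were 8389 and 8187 in deleted and 8907 and 7717 in WT cells. Spike-in reads were a median of 3.35% and 3.87% in deleted and of 2.62% and 3.62% in WT cycling and non-cycling cells. The part of these differences in the gene results was not tested, and with reads scaled to ERCC the median gene stood at 0.24 log2 units instead of -0.02.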

How the data were processed

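Whole-number read counts per gene and RPKM values of single cells were deposited by the authors. Per the labels' protocols, cDNA was made by Smart-seq2, which uses no molecular identifiers, with ERCC spike-in RNA. Build mm10 and the tools HTSeq 0.6.0, Bowtie2 and TopHat2 2.1.0 come from the submitters' processing notes. Whether counting used strand is not given in the sources used here, and antisense genes cannot be separated from their partners. The table lists 40824 genes and 92 ERCC entries, 0 of them mitochondrially encoded, and no cell's counts equalled another's. Doublets were not called.

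Counts were summed over the cells of each class and genotype and given as CPM without ERCC reads. Ratios are log2 with 1 CPM added, for genes with a mean of 5 CPM or more over the 4 groups, and a call asks for 2-fold in both genotypes. A group without a read has a floor of 3 counts, 0.113 to 0.188 CPM. Shares have exact 95% Clopper-Pearson intervals. These intervals and floors cover counting error only. Ngn3-low cells held 380478 to 1250805 reads in genes, and Ngn3-high cells 383144 to 1949839. No p-value was computed, since each genotype is 1 sample. The deposited RPKM served as an alternative and for levels per length.

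The members and the 26 gene lists were chosen with earlier results of these data known. Named genes were 19 fixed ones, the 10 largest ratios each way among called genes at 20 CPM and in 25% of cells of the higher class with the same direction in all 6 title-number sets, up to 4 called members per list, and the 10 highest and 5 lowest rank correlations with Mki67. List members and motif examples outside this rule were named after their values were seen. Promoters are the first listed RefSeq entry per symbol. Python 3.11.15, numpy 2.4.6, scipy 1.17.1, pandas 2.3.3 and edgeR 4.0.16 were used. One member of a list is not reported here.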

Additional observations from a re-analysis of the deposited data

How the results depend on the processing

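No paired analysis was possible because the labels name no animal and the comparison has no test. Ratios within title numbers are descriptions. The shares of cycling cells ran from 38.8 to 58% over the alternatives. Settings of scaling, added CPM and filter cannot change the class of a cell, and leave-out runs reuse most cells. Genes lower in cycling cells numbered 100 in the comparison as reported. They numbered 45 with ERCC scaling, 34 with 5 CPM added, 236 with no filter, 22 with a mean of 20 CPM or more, 43 in the authors' RPKM and 183 without non-cycling cells that held Top2a or Cdk1. Genes higher numbered 248, then 162 at a mean of 20 CPM or more and 387 without those cells. Leaving out each title number in turn gave 107 to 182 lower genes (182 without number 2 of the deleted cells) and 216 to 309 higher genes. Of the 100 lower genes, 67 to 88 were still called in these runs, 41 with Mki67 at 1 CPM or more and 48 at 50 CPM or more. Of the 248 higher genes, 205 to 240, 204 and 218 were. The share of calls that were higher was 71.3%, but 88.4% with ERCC scaling, 84.3% with 5 CPM added, 59.9% with no filter and 88.0% at 20 CPM or more. The Tip and acinar median was -0.42 with Mki67 at 1 CPM or more and -0.14 without cells with Cpa1 at 1000 CPM or more. Of 1166 values of 53 called genes, 3 reversed, namely Cpe at 0.63 with Mki67 at 1 CPM or more, and Cpe at 0.67 and Cpa1 at 0.87 without the Cpa1-high cells. The cause was not tested. The last alternative and the one on Top2a or Cdk1 were chosen after seeing the data.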

Other observations

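The genes in this section were named after their values were seen. Of the called genes, 175 higher and 91 lower ones stood on no list. The main-type histone genes, whose mRNAs mostly lack a poly(A) tail and are made in S phase, were among the higher ones. Of 12 such symbols kept, 8 were called higher and 0 lower. Hist1h2ap had 60.6 and 5.55 CPM in deleted and 106 and 5.65 CPM in WT cycling and non-cycling cells, and Hist1h1b 32.8 and 3.63 CPM and 41.3 and 1.63 CPM. These genes form families of near-identical copies, and their counts are uncertain. Lmnb1, a nuclear lamin, had log2 ratios of 1.22 and 1.19 and reached 10 CPM in 56 of 57 cycling and 52 of 61 non-cycling cells.

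Etv5 and Etv4, Ets factors induced by FGF and ERK signalling, were higher in a minority of cycling cells. Etv5 had 16.3 and 3.17 CPM in deleted and 38.9 and 4.52 CPM in WT cycling and non-cycling cells, and reached 10 CPM in 16 of 57 and 2 of 61 cells. Etv4 did so in 9 and 1 cells. Mxd3, of the same Max-binding family as Mxd1, went the other way from Mxd1 and reached 10 CPM in 16 of 57 cycling and 1 of 61 non-cycling cells. Aldh1a1, a retinaldehyde dehydrogenase, reached 10 CPM in 1 cycling and 10 non-cycling cells.

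The 4 Ngn3-high cells at 10 CPM or more of Mki67 differed in their programs. A WT cell with 26.6 CPM of Mki67 had a Mitosis sum of 8840 CPM and 857 CPM of Neurog3. The other 3 had Mitosis sums of 205 (deleted), 492 and 1265 CPM (both WT). Over all Ngn3-high cells the Mitosis sum had a median of 448 CPM in deleted and 467 CPM in WT cells. The replication sum had a median of 1517 CPM in deleted and 1295 CPM in WT Ngn3-high cells, below the 3639 CPM of non-cycling Ngn3-low cells.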
